A study of Mus musculus with 4 samples.

Results

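The cycling myoblasts were the cells of the satellite cell isolation kit that held RNA of a myogenic factor and RNA of the mitotic cycle at once. Members were chosen by their own counts, so the genes of the rule are a description and support nothing. A barcode (the tag of 1 droplet, read as 1 cell) stayed in if 200 or more genes were detected in it and if mitochondrial UMIs were no more than 20% of its total, a UMI being 1 counted RNA molecule. A member then had a sum of at least 2 UMIs over Myod1, Myf5 and Pax7 and at least 3 UMIs over Mki67, Top2a and Cenpf. There were 302 members in the LNP-CRISPR kit library and 200 in the vehicle kit library, 502 of 3318 kept kit barcodes and of 5674 kept barcodes in the whole series. The study asked in which cells of skeletal muscle a lipid nanoparticle (LNP) carrying CRISPR components is found. It sequenced cells of a mouse model of Duchenne muscular dystrophy (DMD) on the 10x Genomics Chromium system, with 3' reagents of version 3.1. The LNP-CRISPR kit library came from muscle of animals given LNP-CRISPR and the vehicle kit library from muscle of animals given vehicle, and in both the cells are labelled satellite cells. The DMD strain and allele, its background, the age, the number of animals, the dose, the time after dosing and the target of the guide are not given in the sources used here. Each group was 1 library, so no difference below has a replicate check, no test was run, and every interval covers counting error only, at 95%.

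Satellite cells are the stem cells of skeletal muscle. They lie quiescent beside the fibre, carry the paired-box factor Pax7, and after injury enter the cycle as myoblasts that express the myogenic regulators Myf5 and Myod1. Myoblasts then leave the cycle as Myog (myogenin) and the inhibitors Cdkn1a (p21) and Cdkn1c (p57) come up, and fuse into fibres through Mymk (myomaker) and Mymx (myomixer). In dystrophic muscle fibres break down and are rebuilt again and again, so dividing myoblasts are found without an added injury. Mki67 and Top2a mark dividing cells, Top2a untangles replicated chromosomes, and Cenpf sits at the outer kinetochore, so the 3 cycle genes of the rule favour the later part of the cycle.

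On GRCm38 the rule genes lie at chr7:46376474-46379099 (Myod1, plus strand), chr10:107482908-107486134 (Myf5, minus), chr4:139737062-139833528 (Pax7, minus), chr7:135689784-135716361 (Mki67, minus), chr11:98992943-99024189 (Top2a, minus) and chr1:189640606-189688086 (Cenpf, minus). Counts are per gene over the 3' end of transcripts, so no exon or isoform is resolved.

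Promoters of some genes that stood apart between the phases or between the libraries are shown as examples of short motifs. They were picked among genes that hold the marked motif, so they do not stand for their lists. Each is the 250 bases before the RefSeq start of the gene on GRCm38.p6, printed in the direction of transcription. Capitals mark the motif letters found. For Hells (a chromatin remodeller of replication, chr19:38930740-38930989, plus strand) and Cdc6 (which loads the MCM helicase, chr11:98907901-98908150, plus) they mark E2F words, and for Ube2c (a ubiquitin-conjugating enzyme of mitotic exit, chr2:164769679-164769928, plus) and Cdc20 (an activator of the anaphase-promoting complex, chr4:118437344-118437593, minus) they mark the cell cycle homology region (CHR) and the CCAAT box. For Cxcl1 and Cxcl2 (chemokines that attract neutrophils, chr5:90890995-90891244 and chr5:90903649-90903898, plus) and Nfkbia (the inhibitor that NF-kB induces against itself, chr12:55492648-55492897, minus) they mark kappa-B words.
Hells: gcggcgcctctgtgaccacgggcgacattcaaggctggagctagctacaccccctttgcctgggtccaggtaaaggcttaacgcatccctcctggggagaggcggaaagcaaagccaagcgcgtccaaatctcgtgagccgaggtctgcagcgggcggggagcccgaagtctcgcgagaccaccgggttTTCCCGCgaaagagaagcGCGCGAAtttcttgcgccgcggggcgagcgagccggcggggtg
Cdc6: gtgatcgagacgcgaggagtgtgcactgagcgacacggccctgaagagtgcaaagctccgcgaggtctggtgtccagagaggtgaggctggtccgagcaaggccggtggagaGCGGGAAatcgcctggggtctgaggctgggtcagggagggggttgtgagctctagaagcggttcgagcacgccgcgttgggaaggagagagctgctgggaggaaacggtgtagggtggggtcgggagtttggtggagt
Ube2c: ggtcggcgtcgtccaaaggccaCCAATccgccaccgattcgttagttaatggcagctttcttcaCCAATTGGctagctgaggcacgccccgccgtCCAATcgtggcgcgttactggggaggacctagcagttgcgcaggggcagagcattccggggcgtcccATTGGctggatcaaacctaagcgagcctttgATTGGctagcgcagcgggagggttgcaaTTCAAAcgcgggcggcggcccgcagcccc
Cdc20: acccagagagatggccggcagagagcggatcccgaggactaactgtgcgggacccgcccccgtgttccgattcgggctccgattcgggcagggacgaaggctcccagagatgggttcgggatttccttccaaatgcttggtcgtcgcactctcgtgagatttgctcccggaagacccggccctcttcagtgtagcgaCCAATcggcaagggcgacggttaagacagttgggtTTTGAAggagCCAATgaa
Cxcl1: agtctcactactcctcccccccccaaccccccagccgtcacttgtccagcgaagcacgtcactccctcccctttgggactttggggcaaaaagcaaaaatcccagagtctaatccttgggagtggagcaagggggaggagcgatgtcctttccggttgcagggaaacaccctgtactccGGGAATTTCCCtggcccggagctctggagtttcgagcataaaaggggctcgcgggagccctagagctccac
Cxcl2: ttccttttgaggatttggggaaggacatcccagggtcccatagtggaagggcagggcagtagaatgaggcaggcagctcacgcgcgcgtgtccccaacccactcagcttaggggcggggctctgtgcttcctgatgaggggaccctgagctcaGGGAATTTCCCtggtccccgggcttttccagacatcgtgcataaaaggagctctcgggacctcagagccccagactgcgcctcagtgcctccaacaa
Nfkbia: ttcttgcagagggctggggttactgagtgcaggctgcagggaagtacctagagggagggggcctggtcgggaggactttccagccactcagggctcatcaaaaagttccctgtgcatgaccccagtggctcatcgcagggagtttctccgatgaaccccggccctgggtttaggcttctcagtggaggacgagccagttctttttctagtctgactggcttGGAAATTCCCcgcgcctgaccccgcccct

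Both strands were searched. The word was TTTGAA for CHR and CCAAT for the CCAAT box. The first E2F word was TTCCCGC. The second E2F word was TTGGCGC. The last E2F word was TTCGCGC. The kappa-B motif, a site with variable positions, was searched as 4 of its variants. The reverse complement of TTGGCGC can share letters with a CCAAT box. A kappa-B word can overlap the reverse complement of another kappa-B word, as in Cxcl1 and Cxcl2. Of the 31 S phase genes with a promoter in the RefSeq table (of 43), 14 held an E2F word (45.2%), against 6.79% of all 27025 genes. Of the 47 G2/M genes with one (of 54), 19 held CHR (40.4%, against 16.3% of all genes) and 36 held CCAAT (76.6%, against 34.5%). CCAAT was about as frequent in the S phase genes, at 22 of 31 (71%). Of the 23 NF-kB genes with one (of 32), 7 held a kappa-B word (30.4%), against 0.363% of all genes. A match is a description of letters, not of a bound site or a cause.

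The members were deep cells. Their median was 64532 UMIs (range 4631 to 187554) in the LNP-CRISPR kit and 72758.5 UMIs (1453 to 186537) in the vehicle kit, whereas noncycling myogenic cells had medians of 16229 and 14460 UMIs. The whole kit libraries held 40666916 and 28597422 UMIs, with medians of 10379 and 8578 UMIs per kept barcode. The kit libraries shared 1 kept barcode and no member barcode. In the bulk libraries 16 LNP-CRISPR barcodes and 16 vehicle barcodes met the same rule and were not analysed further.

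Other markers of the myogenic lineage were found in the members, though not in them alone. Levels are summed UMIs of the group per 1000000 UMIs of nuclear-encoded genes (CPM). Des, the muscle intermediate filament, had 668 CPM in LNP-CRISPR members and 664 CPM in vehicle members. Cdh15 (M-cadherin) had 118 CPM and 133 CPM, and the integrin Itga7 had 157 CPM and 158 CPM. Cycling cells below the myogenic threshold (27 and 23 cells) had 346 CPM and 673 CPM of Des, 66.4 CPM and 182 CPM of Cdh15, with 54 of 74 vehicle UMIs in 1 cell, and 205 CPM and 167 CPM of Itga7, so these markers did not set members apart from them in both libraries. All 12 myogenic markers, of which 3 are the rule's own, were above 20 CPM in members of both libraries. Defining markers of immune and endothelial cells were at or near 0. Ptprc, C1qa, Cdh5 and Emcn had no UMI in any member, and the summed endothelial and immune lists stayed at 0.582 and 1.85 CPM in LNP-CRISPR members, and 0.666 and 1.70 CPM in vehicle members. Schwann markers summed to 78.5 CPM in LNP-CRISPR members and 16.2 CPM in vehicle members. Pericyte and smooth muscle markers summed to 292 CPM and 374 CPM, mostly Acta2 (271 CPM and 336 CPM), a gene that myoblasts also express, and 1 vehicle member held 730 Acta2 and 292 Myh11 UMIs. Fibro-adipogenic markers summed to 234 CPM and 236 CPM, mostly the collagen Col3a1 (187 CPM in both), with Pdgfra at 0.688 CPM and 0.296 CPM. Tenocyte markers summed to 5.13 CPM and 3.03 CPM, and blood markers to 8.89 CPM and 7.84 CPM. Fibre genes summed to 987 CPM and 684 CPM. Doublets were not removed, and their part in these values was not tested.

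The rule's edges were populated. In the LNP-CRISPR kit 16 members had a cycle sum of exactly 3, with a median of 62.5 UMIs over both phase lists, and 19 myogenic cells just outside had a sum of 2, with 119 phase-list UMIs. In the vehicle kit 8 members had a cycle sum of 3 (139.5 phase-list UMIs) and 26 cells had a sum of 2 (34 UMIs). At the myogenic edge, 8 members in each library had a sum of 2, and 8 cycling cells in each had a sum of 1. Those at 2 had a median of 39.5 UMIs over the 12 myogenic markers in the LNP-CRISPR kit and 27.5 UMIs in the vehicle kit, and those at 1 had 13 UMIs and 11.5 UMIs.

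The cycling share of myogenic cells was larger in the LNP-CRISPR kit. Of the kept barcodes with at least 2 UMIs of Myod1, Myf5 and Pax7, 302 of 563 cycled in the LNP-CRISPR kit (53.6%, exact binomial interval 49.4 to 57.8%), against 200 of 478 in the vehicle kit (41.8%, 37.4 to 46.4%). The ratio of the shares was 1.28 (exact conditional binomial interval 1.07 to 1.54). Since a deeper cell passes the rule more easily, each cell was also thinned to 5000 UMIs. The shares were then 35.8% (106 of 296, interval 30.3 to 41.6%) in the LNP-CRISPR kit and 24% (66 of 275, 19.1 to 29.5%) in the vehicle kit, a ratio of 1.49 (1.09 to 2.06). Over all kept barcodes, members made up 15.8% (14.2 to 17.6%) of the LNP-CRISPR kit and 14.2% (12.4 to 16.1%) of the vehicle kit. The intervals of these last shares overlap, and their ratio was 1.12 (0.931 to 1.34). Myogenic cells, the denominator of the cycling share, were 29.5% of kept barcodes in the LNP-CRISPR kit and 33.9% in the vehicle kit. That ratio was 0.871 (0.770 to 0.987), so the larger cycling share went with a smaller share of myogenic cells.

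Most members were called G2/M and fewer were called S, a majority that the rule's later cycle genes favour. Phase was called from 2 standard gene lists, without the 3 cycle genes of the rule, by which of the S and G2/M scores of a cell was higher, and a cell with neither score above 0 was called G1. S-called cells were 86 of 302 members in the LNP-CRISPR kit (28.5%, 23.5 to 33.9%) and 37 of 200 in the vehicle kit (18.5%, 13.4 to 24.6%). G2/M-called cells were 184 (60.9%, 55.2 to 66.5%) and 149 (74.5%, 67.9 to 80.4%). The remaining 32 (10.6%) and 14 (7%) were called G1, with few cycle UMIs (median 4 and 5 UMIs over the rule's cycle genes). The S share was therefore 1.54 times as large in the LNP-CRISPR kit (1.04 to 2.33), and thinning left it at 25.9% and 17.1%. A phase call is a range of a score and not a cell type. The S and G2/M scores lay within 0.1 of each other in 68 LNP-CRISPR members (22.5%) and 41 vehicle members (20.5%).

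**Figure D1:**
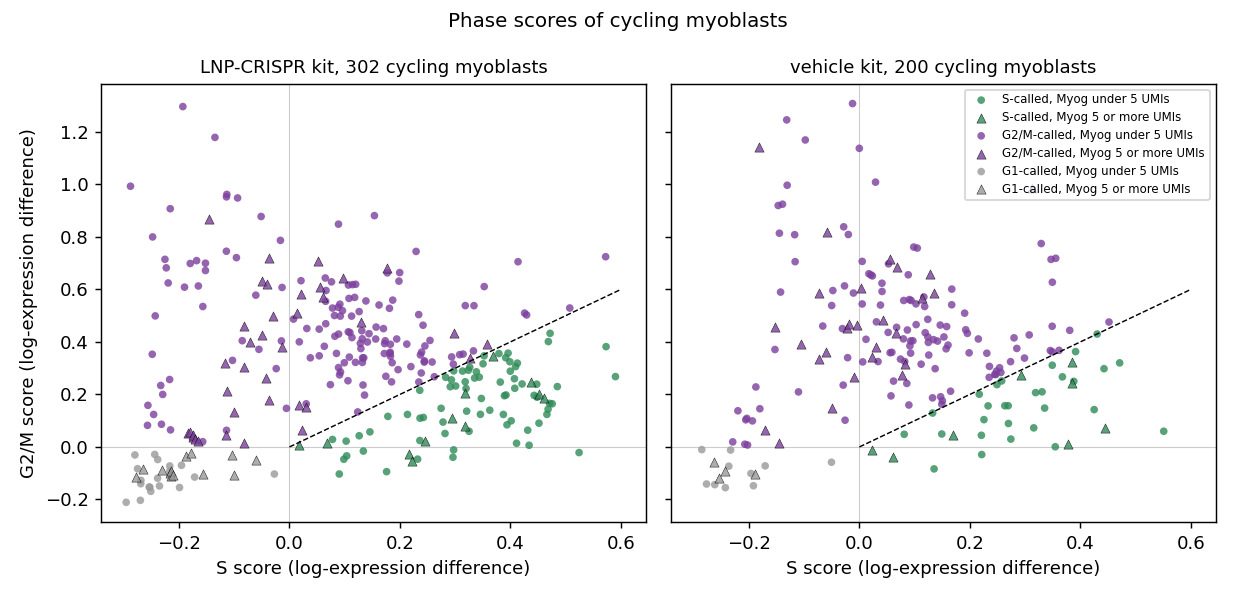
S score against G2/M score of each cycling myoblast, LNP-CRISPR kit on the left and vehicle kit on the right, in score units, with triangles for cells of at least 5 Myog UMIs and a dashed line where the scores are equal. Cells form 1 continuous cloud across the dashed line, with 86 of 302 LNP-CRISPR members and 37 of 200 vehicle members called S.

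**Figure D2:**
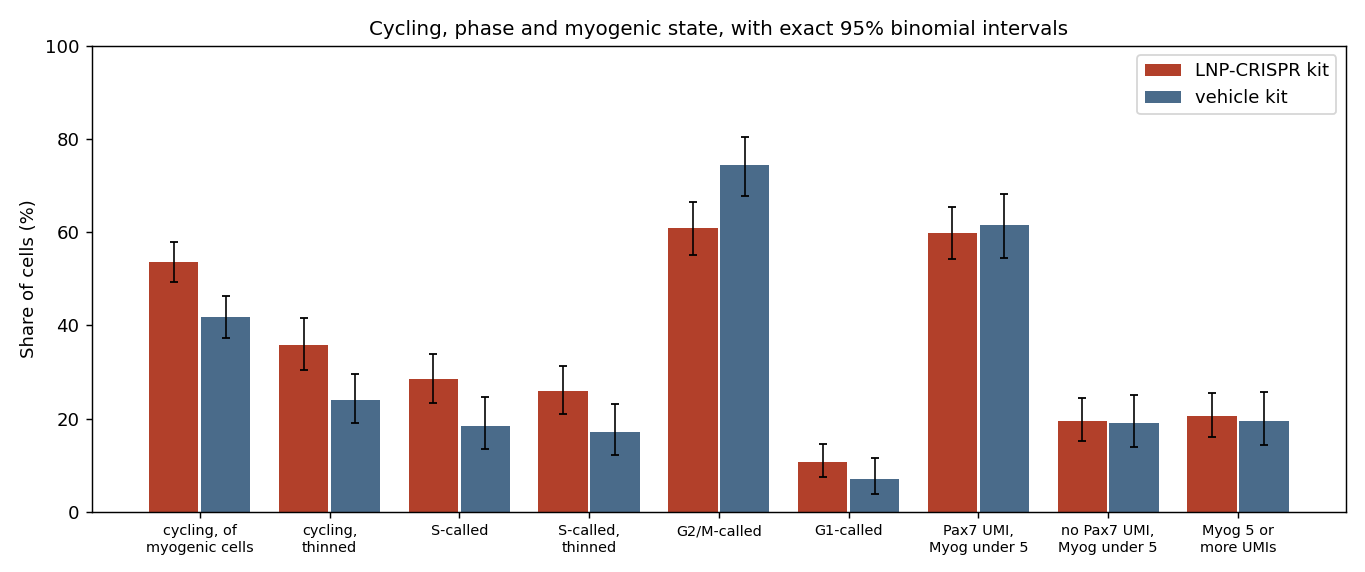
Shares of cells in percent (bars from 0, exact binomial 95% intervals), LNP-CRISPR kit left of vehicle kit, for the cycling share of myogenic cells and for phases and myogenic states of the members. The cycling share was 53.6% against 41.8% and the S share 28.5% against 18.5%, whereas the Myog-high share was 20.5% against 19.5%.

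Within each library, S-called members (median 64434.5 UMIs in the LNP-CRISPR kit and 72396 UMIs in the vehicle kit) were set against G2/M-called members (67830.5 and 76298 UMIs). The calls rest on scores over 43 S genes and 51 G2/M genes of the same cells, so the genes of the lists are a description of the call, and other genes of the same cells are not independent of it. Of 10290 genes with at least 30 UMIs in each library, 58 (0.564%) were at least 2-fold higher in S-called members of both libraries, 91 (0.884%) were at least 2-fold lower in both, and 29 (0.282%) passed 2-fold in opposite directions.

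Genes that prepare and run replication were higher in S-called members. Ung, which removes uracil from DNA, had 67.8 CPM in S-called and 10.8 CPM in G2/M-called LNP-CRISPR members, and 60.8 CPM and 12.7 CPM in vehicle members. Its S over G2/M ratios were 6.31 (5.15 to 7.77) and 4.77 (3.74 to 6.09). Ccne2 (cyclin E2, which drives entry into S phase) had 92.9 CPM and 24.4 CPM in LNP-CRISPR members, and 115 CPM and 21.2 CPM in vehicle members. Hells, with E2F words in the promoter above, had ratios of 2.64 in both libraries (309 CPM and 117 CPM in LNP-CRISPR members, 284 CPM and 108 CPM in vehicle members). Cdc6 had ratios of 2.69 and 2.91, and the list genes Wdr76, Exo1, Uhrf1 and Clspn lay between 2.21 and 3.33 in the 2 libraries. Outside the phase lists the genes furthest apart were Slfn9 (138 CPM and 44.7 CPM in LNP-CRISPR members, 113 CPM and 28.7 CPM in vehicle members), Myb (ratios 4.47 and 4.21), a transcription factor of proliferating cells, Dna2 (3.26 and 3.89), a nuclease of replication forks, Rfc3 (2.56 and 2.40), a subunit of the clamp loader, Tcf19 (2.67 and 2.70), Alkbh2 (2.83 and 3.70), which repairs alkylated DNA, and Ccne1 (2.25 and 3.41), cyclin E1. The olfactory receptor gene Olfr655 also met this rule, with ratios of 3.17 and 10.8, but without its highest cells they were 1.58 and 2.48. Of 46 measured genes of replication licensing and the fork, a list that shares members such as Pcna with the S list, 46 were higher in S-called members of the LNP-CRISPR kit and 41 in the vehicle kit. Their median log2 ratios were 0.75 and 0.64, beside 0.01 and 0.01 over all genes. Pcna, the sliding clamp, had 431 CPM and 213 CPM in LNP-CRISPR members, and 427 CPM and 215 CPM in vehicle members.

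Genes of spindle assembly and mitotic exit were lower in S-called members. Cenpe, a kinetochore motor, had 32.7 CPM in S-called and 174 CPM in G2/M-called LNP-CRISPR members, and 32.2 CPM and 172 CPM in vehicle members. Ube2c had 80.2 CPM and 337 CPM in LNP-CRISPR members, and 98.3 CPM and 455 CPM in vehicle members. Cdc20 had 44.1 CPM and 142 CPM, and 53.2 CPM and 189 CPM, so the 2 promoters printed above with CHR and CCAAT letters belong to genes with S over G2/M ratios between 0.216 and 0.310. Gas2l3 (0.0978 in LNP-CRISPR members and 0.0958 in vehicle members), Kif2c (0.174 and 0.238), Hmmr (0.290 and 0.250) and Nusap1 (0.321 and 0.254), which act on spindle or midzone microtubules, followed. Cenpf, at 0.179 and 0.145, is a gene of the rule. Outside the lists, Plk1 (polo-like kinase) had 16.1 CPM and 76.2 CPM in LNP-CRISPR members, and 18.8 CPM and 94.2 CPM in vehicle members. Ccnb1 (cyclin B1) had ratios of 0.313 and 0.260, the helicase gene Pif1 0.0547 and 0.0586 (0.0293 in the LNP-CRISPR kit and no S-called UMI in the vehicle kit without the highest cells), Sapcd2 0.187 and 0.113 (0.0726 in the vehicle kit without them), Prr11 0.225 and 0.120 (0.0737), Depdc1a 0.269 and 0.216, Arl6ip1 0.293 and 0.304, and the spindle pole gene Aspm 0.297 and 0.244. Of 44 kinetochore and spindle genes, 36 were lower in LNP-CRISPR members and 38 in vehicle members, with median log2 ratios of -0.79 and -1.01.

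Most replication-dependent histone genes were higher in S-called members, by small ratios. The median log2 ratio of S over G2/M was 0.25 over 55 measured histone genes in the LNP-CRISPR kit, 42 of them higher, and 0.47 over 52 in the vehicle kit, 47 of them higher. In each library 3 genes were at least 2-fold higher (background within the library 1.72% and 3.17% of genes) and none at least 2-fold lower (2.38% and 3.28%). In Myog-low members, those with fewer than 5 Myog UMIs, the medians were -0.02 and 0.48, so in the LNP-CRISPR kit the direction depended on which members entered. The linker histone gene Hist1h1b had 883 CPM in S-called and 748 CPM in G2/M-called LNP-CRISPR members, and 1082 CPM and 568 CPM in vehicle members. Histone genes are near-identical copies and their RNA mostly lacks a poly(A) tail, so single-gene values are uncertain.

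**Figure D3:**
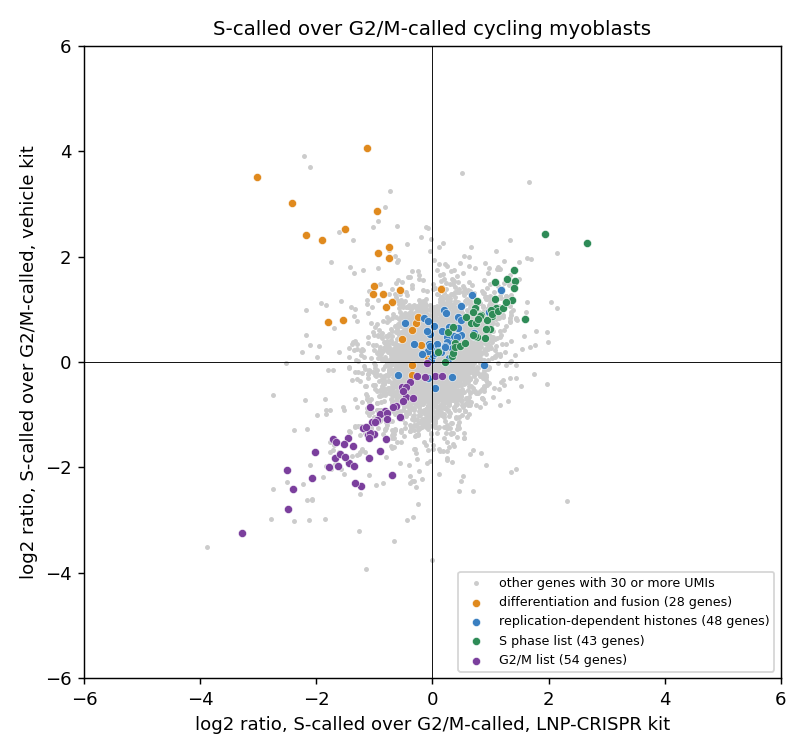
Log2 ratio of S-called over G2/M-called members for each gene, LNP-CRISPR kit on the horizontal and vehicle kit on the vertical axis, with 4 gene lists coloured. S and G2/M list genes lie in the upper right and lower left, which the phase call fixes, and the differentiation genes lie in the upper left, with medians of -0.78 in the LNP-CRISPR kit and 1.29 in the vehicle kit.

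Differentiation genes went opposite ways between the libraries. Of 28 measured genes of differentiation and fusion, 27 were lower in S-called members of the LNP-CRISPR kit (median log2 ratio -0.78) and 26 were higher in S-called members of the vehicle kit (1.29). Myog had 138 CPM in S-called and 225 CPM in G2/M-called LNP-CRISPR members, and 385 CPM and 175 CPM in vehicle members. Cdkn1c had 140 CPM and 237 CPM, and 900 CPM and 199 CPM, with a vehicle ratio of 4.52 that was 2.21 without the highest cells. The vehicle S class was small, and 1 of its 37 cells held 34.4% of its UMIs of this list. Among members with fewer than 5 Myog UMIs, a split chosen after the data were seen, the medians were -0.13 and 0.00. Among those Myog-low members, 34 of 9777 genes (0.348%) were at least 2-fold higher in S-called cells of both libraries, 100 (1.02%) at least 2-fold lower, and 10 (0.102%) passed in opposite directions. Of the rule's 3 myogenic factors, summed Pax7 and Myod1 differed less between the phases than Myf5. Pax7 had 38.2 CPM in S-called and 39.1 CPM in G2/M-called LNP-CRISPR members, and 42.9 CPM and 35.9 CPM in vehicle members. Myod1 had 203 CPM and 221 CPM in LNP-CRISPR members, and 199 CPM and 214 CPM in vehicle members, though the median vehicle cell had 195 CPM in S and 114 CPM in G2/M. Myf5 went opposite ways, with 115 CPM and 92.4 CPM in LNP-CRISPR members, and 53.6 CPM and 88.9 CPM in vehicle members. The median cell had 65.5 CPM and 51.9 CPM of it in LNP-CRISPR members, and 30.4 CPM and 63.8 CPM in vehicle members.

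Pax7, Myf5 and Myod1 RNA was found together in about as many members of either library, and a subset carried myogenin. All 3 factors were detected in 156 LNP-CRISPR members (51.7%) and 97 vehicle members (48.5%). A Pax7 UMI was found in 74.2% of LNP-CRISPR members and 73.5% of vehicle members, beside 1.35% and 0.826% of Schwann-marker barcodes (at least 2 UMIs of Sox10, with medians of 9193.5 and 8251 UMIs), a class that should lack the gene. These shares depend on depth. Thinned to 5000 UMIs, Pax7 was detected in 21.6% and 20.1% of members, in 37.1% and 44.8% of noncycling myogenic cells, and in 0 of 214 and 0 of 113 Schwann-marker barcodes, which allows up to 1.40% and 2.65%. Thinned Myf5 was likewise found in fewer members (31.6% and 34.7%) than noncycling cells (47.1% and 58.3%), whereas Myod1 was found in more (49.8% and 51.3%, against 35.8% and 33.3%). The rule used these 3 genes to choose both classes, which raises their shares most in shallow cells.

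Members with at least 5 Myog UMIs, called Myog-high, were 62 in the LNP-CRISPR kit (20.5%) and 39 in the vehicle kit (19.5%), a ratio of 1.05 (0.694 to 1.61). They were 12 of 86 S-called LNP-CRISPR members (14.0%) and 8 of 37 vehicle ones (21.6%), 37 of 184 G2/M-called (20.1%) and 27 of 149 (18.1%), and 13 of 32 G1-called (40.6%) and 4 of 14 (28.6%). A Pax7 UMI was found in 43 of 62 and 24 of 39 of them. Many lay near the cycle threshold of the rule. A sum of 3 to 9 cycle UMIs was found in 24 of the 62 LNP-CRISPR cells and 7 of the 39 vehicle cells, and these held 53.3% and 40.2% of the Myog UMIs of the class. Of the 13 G1-called LNP-CRISPR cells, 12 had 3 to 6 cycle UMIs. The 3 cycle genes summed to 61.1 CPM and 59.4 CPM in the cells below 10 cycle UMIs, and to 21.8 CPM and 12.02 CPM in Schwann-marker barcodes, of which 3 of 222 and 0 of 121 reached 3 cycle UMIs at their lower depth. Thinned to 5000 UMIs, 24 of 62 LNP-CRISPR and 21 of 39 vehicle Myog-high members still had 3 cycle UMIs or more, against 2 of 214 and 0 of 113 Schwann-marker barcodes. Free RNA and a cell's own RNA cannot be told apart in the cells near the threshold. Myog-high members were deeper (median 81105.5 and 91300 UMIs) than the others, called Myog-low (58476.5 and 65832 UMIs), so a count of UMIs selects in part for depth. At a cut of 100 CPM of Myog in place of 5 UMIs the shares were 21.9% and 18.5%. Thinned to 5000 UMIs, a Myog UMI was found in 21.3% of LNP-CRISPR members and 18.6% of vehicle members, and in 6.54% and 8.85% of Schwann-marker barcodes.

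Fusion genes and cell cycle inhibitors were higher in Myog-high members, also in those well above the cycle threshold. Of 10413 genes, 306 (2.94%) were at least 2-fold higher and 202 (1.94%) at least 2-fold lower in Myog-high than in the other members of both libraries, and 15 (0.144%) passed 2-fold in opposite directions. Mymk had 265 CPM in Myog-high and 5.92 CPM in Myog-low LNP-CRISPR members, and 168 CPM and 8.54 CPM in vehicle members. Mymx had 224 CPM and 4.49 CPM in LNP-CRISPR members, and 144 CPM and 7.03 CPM in vehicle members. Both fusogens were thus far higher in Myog-high cells in each library. Cdkn1c had 1430 CPM and 57.7 CPM in LNP-CRISPR members, and 1249 CPM and 64.0 CPM in vehicle members (ratios 24.8 and 19.5). Cdkn1a had 455 CPM and 126 CPM, and 398 CPM and 125 CPM. The thin-filament genes Lmod3 (42.4 CPM and 0.642 CPM, and 34.8 CPM and 0.301 CPM) and Lmod2 (ratios 32.3 and 84.3) and the embryonic myosin Myh3 (234 CPM and 2.85 CPM, and 76.6 CPM and 1.31 CPM) were also among the genes furthest apart, with Smim5 (16.4 CPM and 0.0713 CPM, and 11.2 CPM and no UMI). Several of these ratios rest in part on single cells. Without the highest cell of each class, the vehicle ratios of Mymx, Lmod3 and Myh3 were 46.8, 224 and 32.8, against 20.5, 115 and 58.6 with them. Myog itself set the split, at 1184 CPM and 7.21 CPM, and 1039 CPM and 6.33 CPM. Of the differentiation list, 29 of 30 genes were higher in the LNP-CRISPR kit and 27 of 28 in the vehicle kit, with median log2 ratios of 3.61 and 2.52 beside -0.06 and -0.01 over all genes.

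The comparison was repeated among members with at least 10 cycle UMIs, a limit chosen after the data were seen, which kept 38 Myog-high and 205 Myog-low LNP-CRISPR members, and 32 and 129 vehicle members. Differentiation genes were then higher by 27 of 28 in each library, with median log2 ratios of 2.90 and 2.19 beside -0.01 and -0.01 over all genes, and 230 of 10163 genes (2.26%) were at least 2-fold higher and 143 (1.41%) at least 2-fold lower in both libraries. Mymk had 149 CPM in Myog-high and 4.86 CPM in Myog-low LNP-CRISPR members, and 133 CPM and 8.73 CPM in vehicle members. Cdkn1c had 793 CPM and 50.2 CPM, and 1052 CPM and 46.0 CPM, ratios of 15.8 and 22.9. The mitotic kinase gene Plk1 had 79.6 CPM and 58.9 CPM, and 93.6 CPM and 84.6 CPM. Both classes were chosen by their cycle UMIs, so mitotic RNA in them is a description. The values are sums over a class and do not show which cells held both mitotic and fusion RNA. The LNP-CRISPR ratios of Lmod2 (10.8), Lmod3 (22.3) and Myh3 (38.6) and the vehicle ratio of Myh3 (19.5) were smaller than over all members by more than 1.5 times, and the vehicle ratios of Mymx (48.5) and Lmod3 (282) were larger by as much. The vehicle ratio of Lmod3 is very uncertain, with an interval of 49.5 to 11270. Myog-low vehicle members had 0.1105 CPM of Lmod3, and no UMI of it without the highest cell.

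Most quiescence and stem, matrix and replication genes were lower in Myog-high members. Of 22 quiescence and stem genes 20 were lower in the LNP-CRISPR kit and 19 in the vehicle kit (median log2 ratios -0.67 and -0.41), and with at least 10 cycle UMIs 19 of 22 and 15 of 21 were. Chodl (chondrolectin, a satellite cell marker) had 1.84 CPM in Myog-high and 43.2 CPM in Myog-low LNP-CRISPR members, and 0.561 CPM and 27.1 CPM in vehicle members. The basement membrane collagen Col4a1 had 11.7 CPM and 103 CPM in LNP-CRISPR members, and 8.70 CPM and 54.2 CPM in vehicle members. Pax7 had 22.5 CPM and 47.2 CPM in LNP-CRISPR members, and 19.9 CPM and 45.3 CPM in vehicle members, while Myod1 had 313 CPM and 190 CPM, and 342 CPM and 168 CPM. Thus Pax7 was lower and Myod1 higher with Myog, though both belong to the rule. Ccnd1 (cyclin D1) had 281 CPM and 530 CPM in LNP-CRISPR members, and 249 CPM and 490 CPM in vehicle members. The matrix and adhesion list was lower by 26 of 30 genes in the LNP-CRISPR kit and 25 of 30 in the vehicle kit (median log2 ratios -1.21 and -0.77), and the S phase list by 42 and 36 of 43 (-0.78 and -0.37, against -0.31 in each library with at least 10 cycle UMIs). Dpt, Meg3, Col15a1, Nrep, Nppc and the chemokine gene Cxcl2 (20.5 CPM and 363 CPM, and 6.45 CPM and 54.7 CPM) completed the 8 genes furthest below. Without the highest cells the 8 genes stayed lower, with vehicle ratios of 0.0120 for Chodl, 0.0281 for Meg3 and 0.0836 for Col4a1.

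**Figure D4:**
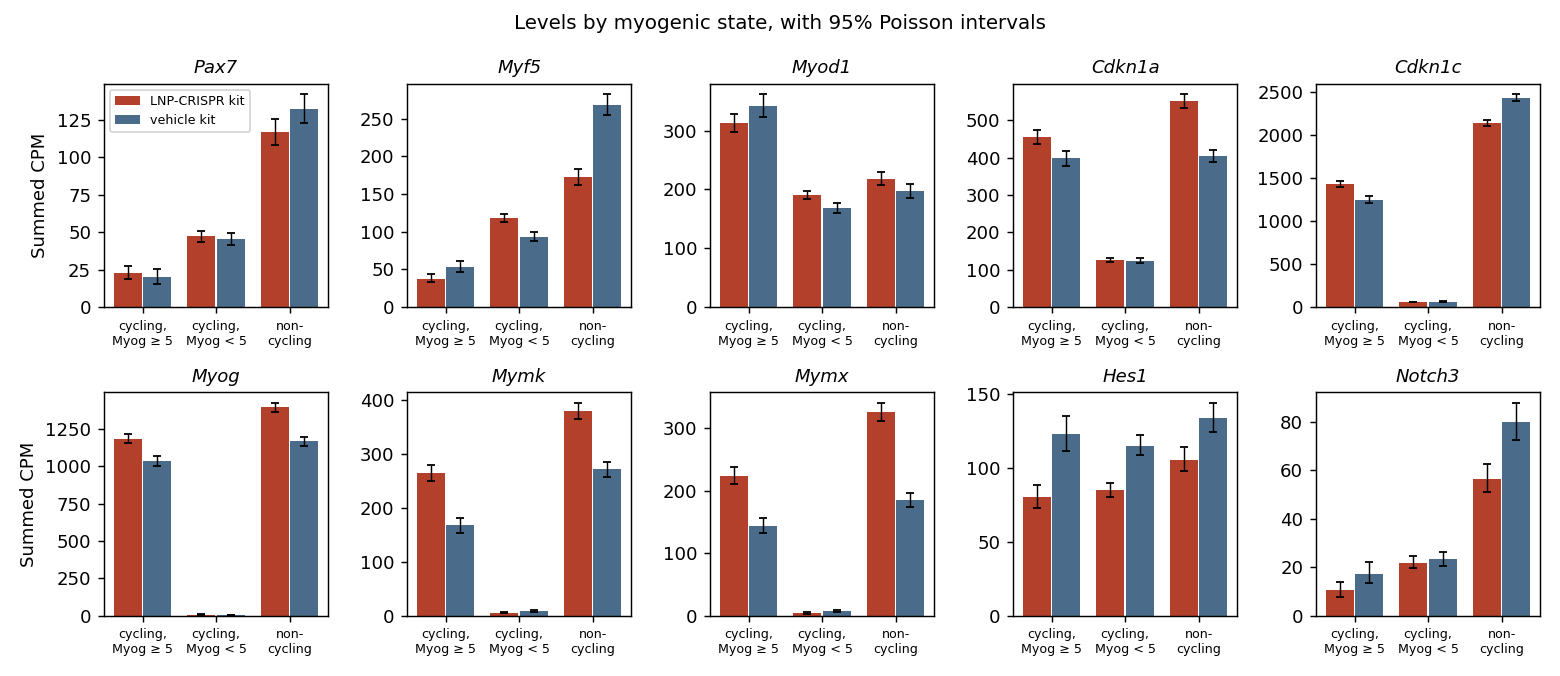
Summed CPM of 10 genes in Myog-high members, Myog-low members and noncycling myogenic cells (bars from 0 with 95% Poisson intervals), LNP-CRISPR kit left of vehicle kit. Cdkn1c, Mymk and Mymx are high in Myog-high members and noncycling cells and low in Myog-low members, and Myog defined the split.

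Against noncycling myogenic cells (261 in the LNP-CRISPR kit and 278 in the vehicle kit), members had lower CPM of differentiation and most quiescence genes. A CPM is a share of the RNA counted, not an amount per cell. The groups were cut by counts in the same cells and differ in depth, so this is a description. Of 11273 genes, 738 (6.55%) were at least 2-fold higher and 1209 (10.7%) at least 2-fold lower in members of both libraries, and 6 (0.0532%) passed in opposite directions. Beyond the rule genes, Esco2, which joins sister chromatids, had 46.0 CPM in members and 0.469 CPM in noncycling cells of the LNP-CRISPR kit, and 45.0 CPM and 0.366 CPM in the vehicle kit, where the ratio of 123 was 239 without the highest cells. Cenpe (ratios 88.1 and 52.5) and the spindle factor Tpx2 (49.5 and 45.7) followed. At the low end stood the imprinted long noncoding RNAs Meg3 (36.5 CPM in members and 521 CPM in noncycling cells of the LNP-CRISPR kit, 50.8 CPM and 660 CPM in the vehicle kit) and Rian (ratios 0.0942 and 0.0799), the kinase gene Mylk4 (0.0488 and 0.0277), Dcx (0.0545 and 0.0373), Tcp11l2 (0.0677 and 0.0707) and the gelatinase gene Mmp2 (0.0823 and 0.0654). All 30 differentiation genes were lower in members of both libraries, with median log2 ratios of -2.37 and -2.68 beside -0.11 and -0.11 over all genes, and quiescence and stem genes were lower by 20 and 22 of 22 (-1.46 and -1.83). Cdkn1c had 412 CPM in members and 2136 CPM in noncycling cells of the LNP-CRISPR kit, and 376 CPM and 2432 CPM in the vehicle kit.

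Dmd, the gene that encodes dystrophin, had 9.31 CPM in LNP-CRISPR members and 9.69 CPM in vehicle members, a ratio of 0.961 (0.762 to 1.21). It had 52.2 CPM and 69.8 CPM in noncycling myogenic cells and 243 CPM and 236 CPM in Schwann-marker barcodes, a lineage known for a short dystrophin form. Utrn (utrophin, its homologue) had 73.5 CPM in LNP-CRISPR members and 66.0 CPM in vehicle members. The counts do not resolve an edited or mutated exon.

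Cycling cells of the kit below the myogenic threshold were few, 27 in the LNP-CRISPR kit and 23 in the vehicle kit. Of 10530 genes, 384 (3.65%) were at least 2-fold higher in members than in them in both libraries, 747 (7.09%) at least 2-fold lower, and 358 (3.4%) passed in opposite directions. Ankrd1, a titin-binding protein, had 404 CPM in members and 74.8 CPM in other cycling cells of the LNP-CRISPR kit, and 334 CPM and 86.0 CPM in the vehicle kit. Its ratio in the LNP-CRISPR kit was 5.40, and 11.9 without the highest cells. Tnnt2 (116 CPM and 8.31 CPM, and 58.0 CPM and 7.37 CPM), the cardiac and embryonic troponin T, and Bex1 (50.4 CPM and no UMI, and 50.5 CPM and 4.91 CPM) were higher in members beside the rule genes Myod1 and Myf5 and Myog. The genes furthest below, Sparcl1 (22.4 CPM in members and 2256 CPM in other cycling cells of the LNP-CRISPR kit, 25.97 CPM and 1457 CPM in the vehicle kit), Mylk (10.6 CPM and 952 CPM, and 17.1 CPM and 843 CPM), Acan, Avpr1a, Olfr558 and Fam81a, include the myosin light chain kinase of smooth muscle (Mylk) and a vasopressin receptor (Avpr1a). With so few other cycling cells, the ratios of 8 of these 9 genes moved by over 1.5 times in a library without the highest cells, none across 1.

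Between the treatments, inflammatory genes of the NF-kB pathway stood apart among the members, with chemokines at the top. Of 11847 genes with at least 30 UMIs, 411 (3.47%) were at least 1.5-fold higher and 391 (3.3%) at least 1.5-fold lower in LNP-CRISPR than in vehicle members. Of 28 measured NF-kB and acute inflammation genes, 24 were higher and 14 at least 1.5-fold higher, and 2 were at least 1.5-fold lower. Their median log2 ratio was 0.58, beside -0.01 over all genes. The list was chosen with earlier results of these data known, so its counts are a description.

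Cxcl2 had 274 CPM in LNP-CRISPR members and 42.0 CPM in vehicle members, a ratio of 6.54 (5.996 to 7.14), and was detected in 148 of 302 and 44 of 200 cells. Cxcl1 had 757 CPM and 274 CPM, a ratio of 2.76 (2.66 to 2.87). The quartiles of Cxcl1 over cells were 55.9, 322 and 1047 CPM in LNP-CRISPR members and 0, 65.3 and 249 CPM in vehicle members, so the difference was spread over many cells, which overlapped. Nfkbia had 929 CPM and 437 CPM, a ratio of 2.13 (2.07 to 2.19), with quartiles of 312, 809 and 1262 CPM, against 154, 306 and 552 CPM. These are the 3 genes whose promoters are printed above with kappa-B letters. Ccl7 (16.0 CPM and 2.07 CPM, ratio 7.71) and Ccl2 (99.1 CPM and 37.7 CPM, 2.63) attract monocytes, and Cxcl3 (23.5 CPM and 4.81 CPM, 4.89) attracts neutrophils. The median cell had 0 CPM of Cxcl2 and Ccl2 in each library, and the upper quartile of Ccl7 was 0 CPM in both. The sums of these 3 genes thus lay in a minority of cells. Tnfaip3, the A20 feedback inhibitor (43.0 CPM and 19.4 CPM), Irf1, an interferon regulatory factor (55.4 CPM and 29.2 CPM), and Nfkbiz, a nuclear IkB protein (90.4 CPM and 51.7 CPM), were higher by ratios of 2.22, 1.90 and 1.75. Not all of the list went this way. Sod2, a mitochondrial superoxide dismutase and NF-kB target, had 151 CPM in both libraries, the adhesion molecule Vcam1 had 258 CPM and 226 CPM, and Il1b and Csf2 had ratios of 0.540 and 0.443. Csf2 is sparse, and its ratio was 1.19 without the highest cells.

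The direction held in both phases but not in Myog-high members. In S-called members 16 of 25 genes of the list were at least 1.5-fold higher (background 6.14%; median log2 ratio 0.71), and in G2/M-called members 14 of 28 (background 3.08%; 0.55), with 2 at least 1.5-fold lower (background 3.21%). Nfkbia had 1021 CPM in S-called LNP-CRISPR and 431 CPM in S-called vehicle members, and 914 CPM and 442 CPM in G2/M-called ones. In Myog-low members 17 of 27 genes were at least 1.5-fold higher (background 3.72%; 0.94) and 1 at least 1.5-fold lower (background 3.81%), whereas in Myog-high members 12 of 24 were higher at all (0.00). Whether the classes differ was not tested. Noncycling cells also differed between the libraries: Nfkbia had 692 CPM and 451 CPM in noncycling myogenic cells, where 12 of 26 genes passed 1.5-fold (background 3.62%; 0.53) and none was as far below (background 6.77%). In Schwann-marker barcodes Nfkbia had 807 CPM in the LNP-CRISPR kit and 329 CPM in the vehicle kit, Cxcl1 had 100 CPM and 8.32 CPM, and Cxcl2 had 78.3 CPM and 0.924 CPM. Free RNA and RNA of those barcodes' own cells cannot be told apart.

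**Figure D5:**
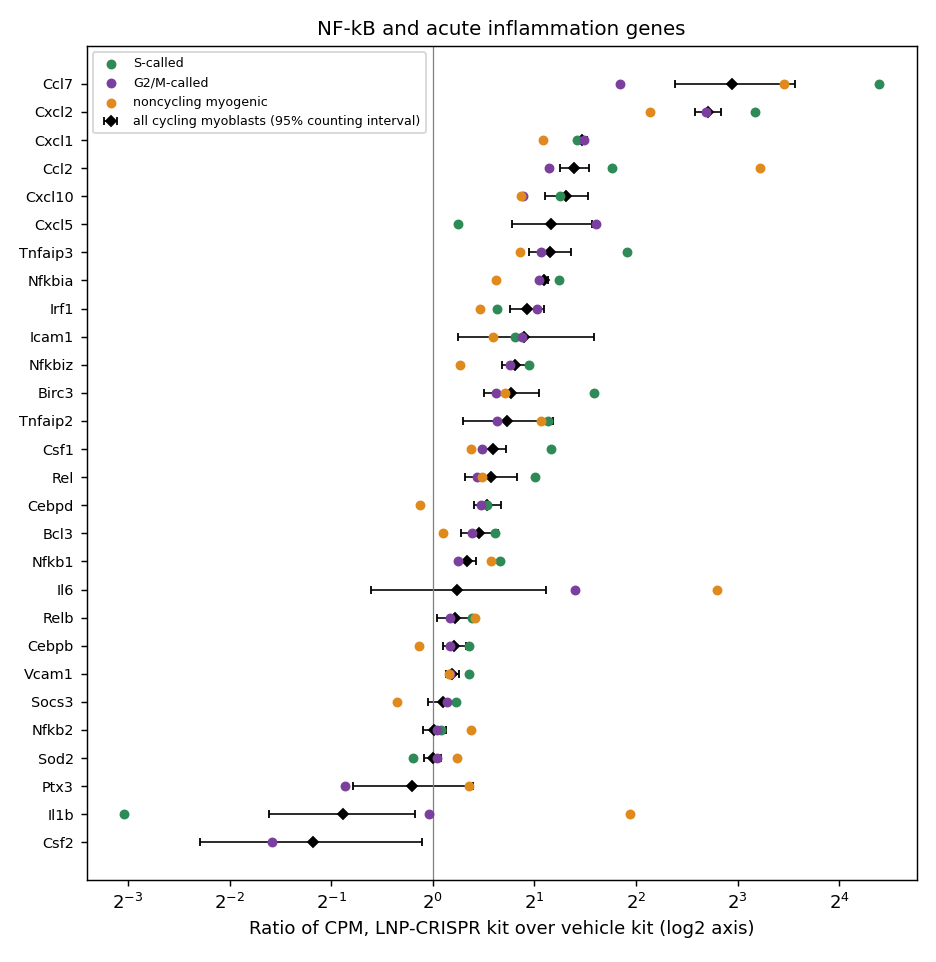
Ratio of CPM, LNP-CRISPR over vehicle, for each measured NF-kB and acute inflammation gene (log2 axis), with diamonds and 95% counting intervals for all members and dots for S-called, G2/M-called and noncycling myogenic cells. Of the 28 diamonds 24 lie above 1, led by Ccl7 at 7.71 and Cxcl2 at 6.54, and Csf2 and Il1b lie lowest, at 0.443 and 0.540.

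Other genes furthest above included genes of muscle and blood. Actc1, the cardiac and embryonic actin, had 89.2 CPM in LNP-CRISPR members and 34.2 CPM in vehicle members, and Myh3 had 62.6 CPM and 21.2 CPM. The median cell had 0 CPM of both genes in each library. The upper quartile of Actc1 was 8.995 CPM in LNP-CRISPR members and 9.64 CPM in vehicle members, and that of Myh3 was 0 CPM in both. These summed differences thus lay in a minority of cells. The haemoglobin gene Hba-a2 had 4.50 CPM and 0.444 CPM, with at most 7 UMIs in an LNP-CRISPR cell and 1 in a vehicle cell, while its near-identical copy Hba-a1 had 3.49 CPM and 6.14 CPM, so the split between the copies is uncertain. Kcna1, a potassium channel, had 5.39 CPM and 0.740 CPM, with 44 of 102 LNP-CRISPR UMIs in 1 cell, and Xlr3b had 1.53 CPM and 0.148 CPM (ratio 10.4, and 17.1 without the highest cells). Furthest below stood Klf2, a Krüppel-like factor (19.9 CPM in LNP-CRISPR members and 46.8 CPM in vehicle members, ratio 0.426, interval 0.374 to 0.484), the keratin Krt8 (5.29 CPM and 29.3 CPM, with 185 of 396 vehicle UMIs in 1 cell, ratio 0.181, and 0.299 without the highest cells), the matrix genes Postn (5.08 CPM and 15.7 CPM) and Islr (2.49 CPM and 8.36 CPM), Gucy1b1 (ratio 0.255), a subunit of soluble guanylate cyclase, Fam83a (0.365), and the unnamed genes Gm50115 (0.159 CPM and 3.33 CPM) and Gm26885 (12.4 CPM and 44.5 CPM). The upper quartiles of Krt8, Postn and Islr over cells were 0 CPM in both libraries, so their sums also lay in a minority of cells.

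Medians of the phase lists differed less between the treatments within a phase than over all members, which the phase call itself favours. Over all members, 47 of 54 G2/M genes were lower in the LNP-CRISPR kit (median log2 ratio -0.27) and 37 of 43 S phase genes were higher (0.14). Within G2/M-called members these medians were -0.11 and 0.07, and within S-called members 0.05 and 0.10. Phase was called from scores over nearly all of these genes, so cells of a phase were already matched in part on the values compared. Whether the phase shares account for the difference over all members was not tested. Hmgb2, a chromatin protein, had 1141 CPM in LNP-CRISPR members and 1378 CPM in vehicle members. Plk1 had 54.1 CPM and 78.1 CPM, Ccnb1 95.7 CPM and 125 CPM, and Cdk1, the mitotic kinase, 179 CPM and 234 CPM. Ccnd1 had 466 CPM and 426 CPM, and Cdkn1b (p27) had 44.3 CPM in each. The p53 targets Cdkn1a (211 CPM and 197 CPM) and Mdm2 (47.7 CPM and 42.8 CPM) had ratios near 1, and their list of 30 measured genes divided into 15 higher and 15 lower (median -0.01). Histone genes were higher by 44 of 57 (median 0.28), with 684 CPM and 476 CPM of Hist1h2ap, but after thinning to 5000 UMIs the list median was -0.06.

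Myogenic and Notch genes shifted by less. Of 16 myogenic factors 9 were higher and 7 lower (median log2 ratio 0.06), 1 of them at least 1.5-fold higher (Mef2c, 14.0 CPM in LNP-CRISPR members and 8.43 CPM in vehicle members, background 3.47%) and 3 at least 1.5-fold lower (background 3.3%). Those were Id2, an inhibitor of basic helix-loop-helix factors (94.4 CPM and 142 CPM), and the sparse Myf6 and Pax3. Myog had 312 CPM and 279 CPM, Myod1 222 CPM and 214 CPM, Pax7 40.8 CPM and 38.6 CPM, and Myf5 97.2 CPM and 83.1 CPM. Msc (musculin, a repressor, 30.8 CPM and 41.5 CPM) was lower. Of 15 measured Notch genes 11 were lower (median -0.08). The Notch target Hes1 had 83.9 CPM and 117 CPM, a ratio of 0.716 (0.667 to 0.768), with 0.798 in S-called, 0.765 in G2/M-called and 0.789 in noncycling cells. These ratios are of summed levels. The median cell had 64.5 CPM and 73.9 CPM of Hes1 over all members, and 74.2 CPM and 89.1 CPM in G2/M-called ones. In S-called members it had 39.4 CPM and 38.6 CPM, and in noncycling cells 59.3 CPM and 52.1 CPM, so the direction did not hold there. In summed level Heyl (14.2 CPM and 17.8 CPM) and Nrarp (3.23 CPM and 5.47 CPM), other targets, were lower too, whereas the receptors Notch1 (48.2 CPM and 49.5 CPM) and Notch3 (18.99 CPM and 21.8 CPM) and the mediator Rbpj (151 CPM and 126 CPM) did not follow them in size or direction. Of these genes Nrarp alone was at least 1.5-fold lower.

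Differentiation genes were higher over all members (21 of 30, 12 of them at least 1.5-fold, background 3.47%, median log2 ratio 0.48), but the value depended on which cells entered. In Myog-low members the median was -0.24 and in Myog-high members 0.66, and with at least 10 cycle UMIs and 4 myogenic UMIs per member it was -0.13. In S-called members all 28 measured genes were lower (median -1.77, 23 past 1.5-fold, background 6.89%), and in G2/M-called members 19 of 28 were higher (0.27). Leaving out the 1 member with the most UMIs of the list in each library gave -1.22 in S-called members, with 25 of 26 genes lower, and 0.27 in G2/M-called members. Of the S-called members, 12 LNP-CRISPR and 8 vehicle cells were Myog-high.

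Cas9 RNA was counted in LNP-CRISPR members and in none of the 200 vehicle members, which allows a share of up to 1.5%. The 302 LNP-CRISPR members held 6065 Cas9 UMIs, 321 CPM (Poisson interval 313 to 329). A UMI was found in 132 cells (43.7%), so the median cell had 0. In Schwann-marker barcodes of the same library, at lower depth, 12.6% of barcodes held a UMI (7.48% after thinning), and 1 of 222 held at least 4. At least 4 UMIs were found in 62 members (20.5%, 16.1 to 25.5%) and in 29 of 261 noncycling myogenic cells (11.1%, 7.57 to 15.6%), which were shallower. Thinned to 5000 UMIs, a Cas9 UMI was found in 19.9% of members (15.6 to 24.9%) and 20.4% of noncycling myogenic cells (15.5 to 26.1%), so at matched depth these shares had overlapping intervals. The RNA was very uneven, as 31 cells held 92.4% of it and the highest cell held 642 UMIs, without which the level was 289 CPM.

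Cas9 RNA was found in both phases and was lower in level in Myog-high members, while the shares of cells had overlapping intervals. S-called members had 293 CPM and G2/M-called members 363 CPM, and at least 4 UMIs were found in 24.4% (15.8 to 34.9%) and 19.02% (13.6 to 25.4%) of them. Myog-high members had 44.6 CPM (38.9 to 50.9) and Myog-low members 417 CPM (406 to 428), with at least 4 UMIs in 17.7% (9.20 to 29.5%) and 21.2% (16.3 to 27.0%). Noncycling myogenic cells had 130 CPM and other cycling cells 83.1 CPM. The 62 members with at least 4 Cas9 UMIs and the 170 with none had median depths of 63626 and 63446.5 UMIs, S shares of 33.9% and 29.4%, and Myog-high shares of 17.7% and 18.8%. Between them 21 of 27 NF-kB genes were higher in the Cas9-rich cells (median log2 ratio 0.29), 3 of them at least 2-fold (background 1.2%) and 1 at least 2-fold lower (background 2.18%). Of the G2/M genes, 52 of 54 were lower (-0.28). These cells come from 1 library, and their differences were not tested.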

How the data were processed

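The authors deposited 1 matrix per library of raw counts (UMIs per gene and barcode), already limited to called cells. The matrices were written by cellranger 5.0.1 per the file headers. Cell Ranger 7.0.1 and the build mm10 are listed in the submitters' processing notes. Barcodes were filtered and members chosen as given above. Phase was called with scanpy 1.11.5 (score_genes_cell_cycle, seed 1) on all kept kit cells, scaled to 10000 UMIs and log-transformed, without Mki67, Top2a and Cenpf in the lists. Scrublet, as built into scanpy, called 0.420% of LNP-CRISPR kit and 0.496% of vehicle kit barcodes, which was treated as not having worked, so doublets were not removed. UMIs were summed per group, expressed per 1000000 nuclear-encoded UMIs, and compared as ratios with exact conditional binomial intervals (SciPy 1.17.1). Shares have exact Clopper-Pearson intervals and levels exact Poisson intervals, all at 95%. A share of 0 was bounded by 3 counts.

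List medians used a pseudocount of 0.5 UMI and genes with at least 20 UMIs. A gene counted as past the fold at a ratio of 1.5 between libraries and 2 between cell classes, with at least 30 UMIs. The ratio and interval scripts were checked on simulated counts. Named genes were the 8 (or 6) highest and lowest by the interval bound nearest 1, in the library where that bound was closer to 1 or after leaving out the highest cells, with a fixed set and the most abundant list genes. Other genes of the NF-kB, cyclin and differentiation lists were named after their values were seen. The comparison of Myog-high with Myog-low members was named by the same rule, which was not fixed for it. Members and all 26 lists were chosen with earlier results of these data known. Promoters came from RefSeq on GRCm38.p6 and gene positions from GENCODE M21. Some single-gene results are not reported here. Alternatives are given in the closing section.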

Additional observations from a re-analysis of the deposited data

Results flagged for a closer look

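LNP-CRISPR and vehicle members stood in opposite directions in the 2 phase classes for differentiation genes, and the difference between the classes was not tested. Actc1, the cardiac and embryonic actin, had an LNP-CRISPR over vehicle ratio of 0.253 in S-called members (0.377 without the highest cells) and 3.59 in G2/M-called members (2.43 without them). Myh3, the embryonic myosin, had 0.232 in S-called and 4.43 in G2/M-called members. In S-called vehicle members 48 of 51 Myh3 UMIs came from 1 cell, and without the highest cells the S ratio was 2.93 (0.875 to 15.4), so its direction in S-called members rests on that cell. The differentiation and fusion list had a median log2 ratio of -1.77 in S-called and 0.27 in G2/M-called members. In S-called vehicle members 1 of 37 cells held 34.4% of the UMIs of the list.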

How the results depend on the processing

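No paired analysis was possible because each group is 1 library. With 1 library per group, depth and preparation cannot be told apart from treatment. Of 26 list medians between the treatments, 11 changed sign under 1 or more alternatives, 9 of them lists with a median under 0.2 in size. The other 2 were the histone list, at -0.056 after thinning to 5000 UMIs, and the differentiation list, at -0.24 in members with fewer than 5 Myog UMIs and -0.13 under a stricter member rule. The interferon median ran between -0.0004 and 0.46. The NF-kB median stayed between 0.55 and 0.94. Lists at or above 0.2 were 3 as reported, 5 with every cell at the same weight and 7 in Myog-low members. Lists at or below -0.2 were 2, and 1 with equal weights and with the stricter rule. The cycling share of the LNP-CRISPR kit was 47.8% with the stricter rule, and thinning gave 35.8% and 24% in the LNP-CRISPR and vehicle kits. The S share by fraction of phase-list UMIs, cut at the median of all members, was 55.0% in the LNP-CRISPR kit and 42.5% in the vehicle kit. Genes at least 1.5-fold higher in LNP-CRISPR members were 411, against 773 with equal weights, 152 at a minimum of 100 UMIs and 3214 with no minimum, and lower genes were 391, against 129 and 2565 at these minimums. Genes higher in S than G2/M were 58, against 32 at a minimum of 100 UMIs, 34 in Myog-low members, 461 with no minimum and 18 after thinning. Lower genes were 91, against 163 with equal weights, 176 with no minimum and 59 after thinning. Genes higher in members than in noncycling cells were 738, against 469 after thinning, and lower genes 1209, against 760 at 100 UMIs, 2611 with no minimum and 418 after thinning. Genes higher in Myog-high than Myog-low members were 306, against 71 after thinning, 188 at 100 UMIs and 840 with no minimum, and lower genes 202, against 364 with equal weights, 337 without the highest cells, 116 after thinning, 105 at 100 UMIs and 477 with no minimum. Cas9 was 321 CPM, against 387 with equal weights, 417 in Myog-low members, 301 under a stricter barcode filter, 363 after thinning and 289 without the highest cell. Other causes of these moves were not tested. The Myog-low split, the minimum of 10 cycle UMIs, all alternatives for Myog-high against Myog-low members, the removal of cells with markers of another type, and the removal of the cell with the most list UMIs were chosen after the data were seen. Of all values that answer a comparison, 105 of 143 moved by less than their spread or 1.5 times. Leaving out Scrublet doublets and cells with 3 or more UMIs of another marker class kept 1 LNP-CRISPR member and no vehicle member, so it gave no value.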

Other observations

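Oxidative phosphorylation genes were mostly lower and cholesterol synthesis genes mostly higher in LNP-CRISPR members, both by small amounts. Of 80 measured nuclear genes of oxidative phosphorylation, 71 were lower in LNP-CRISPR than in vehicle members and none passed 1.5-fold, with a median log2 ratio of -0.07. Cox7c, a subunit of cytochrome oxidase, had 1424 CPM in LNP-CRISPR members and 1524 CPM in vehicle members. The glycolytic enzyme Gapdh had 2599 CPM and 2911 CPM, and the pyruvate kinase Pkm had 916 CPM and 1007 CPM. Of 24 cholesterol synthesis genes 20 were higher (median 0.20), among them Hmgcs1 (48.8 CPM and 40.5 CPM) and Fdps (67.8 CPM and 60.1 CPM), and in noncycling cells 11 of 23 were higher (median -0.01). Among matrix and adhesion genes the integrin Itgb1 (465 CPM and 389 CPM) and the proteoglycan Sdc4 (464 CPM and 402 CPM) were higher in members by ratios of 1.20 and 1.16.

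Medians of the stress and immune lists were small. Of 23 genes of the unfolded protein response 18 were higher (median 0.07), with 778 CPM of the chaperone Hspa5 in LNP-CRISPR members and 692 CPM in vehicle members. The 19 heat shock genes had a median of -0.03, the 37 DNA damage and repair genes 0.09, the 15 MHC class I genes -0.13 and the 31 interferon response genes 0.20, which ran between -0.0004 and 0.46 over the alternatives. Immediate early genes had a median of 0.06 in members and -0.50 in noncycling cells. The lipoprotein uptake list had a median of 0.06 over 13 genes, with Apoe at 21.5 CPM in LNP-CRISPR members and 11.3 CPM in vehicle members.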
